A study of Mus musculus with 4 samples.

Results

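Profibrotic growth factors and the urokinase system were followed across the leukocytes of healthy and steatotic mouse liver. The 10 genes were taken by symbol from a list of names: Tgfb1, Pdgfa, Pdgfb, Gdf3, Gdf15, Igf1, Plau, Plaur, Adam8 and Vegfa. Each symbol matched 1 row of the gene table, so 10 of 27998 measured genes were members. Together they held 28121 UMIs (unique molecular identifiers, which count captured RNA molecules) in 6158 kept cells. The sorted CD45+ CD146- cells of C57BL/6J mouse liver were captured with 10x Genomics droplets from polyadenylated RNA. One group of 2 libraries came from mice on a control diet and the other group of 2 from mice on the nash-amln diet, the Amylin liver NASH model diet, which brings on nonalcoholic steatohepatitis. All livers were perfused and digested with the transcription inhibitor flavopiridol present. The labels give no age, sex or length of diet and do not say that each library was a separate mouse, so the p-values rest on the spread among these libraries alone, which may be technical.

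Scarring of the liver is carried out by hepatic stellate cells, which turn into matrix-making myofibroblasts when signals reach them. Transforming growth factor beta 1, encoded by Tgfb1, drives matrix synthesis, and the platelet-derived growth factors, dimers of Pdgfa and Pdgfb products, drive their division and movement. Macrophages are a known source of these signals and of insulin-like growth factor 1. Urokinase (Plau), held at the cell surface by its receptor (Plaur), turns plasminogen into plasmin, which cleaves matrix and fibrin and can release latent growth factors.

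The libraries differed in depth. Control barcodes had medians of 3064.5 and 2573 UMIs and NASH barcodes 7447 and 7344. Levels are therefore given as CPM, a gene's counts per 1e6 UMIs of the summed cells of 1 library. Macrophage-like cells, defined by the complement genes C1qa, C1qb and C1qc, numbered 974 and 872 on control diet and 738 and 1022 on NASH diet, 3606 in all, and none of the 15 macrophage markers was at 0 in any library's sum. The class was filled by different clusters in each diet, named here by their 3 leading genes. The Fkbp5/Abhd11os/Fosb cluster held 839 and 90 control cells and the Marco/Cxcl13/Hmox1 cluster 98 and 717, so the control libraries differed in state. NASH cells lay in the Mmp12/Mmp13/Il1rn (280 and 273 cells), Folr2/Apoc1/Mmp27 (148 and 335), Cx3cr1/Olfml3/Sirpb1a (161 and 290) and Atp6v0d2/Gpnmb/Syngr1 (135 and 119) clusters. The Fkbp5, Marco, Folr2 and Mmp12 clusters, with the resident macrophage genes Clec4f and Vsig4 in over 80% of cells, were called Kupffer-like. Other resident macrophage genes were uneven among them. Timd4 was in 69.7% of Fkbp5, 70.3% of Marco, 43.2% of Folr2 and 18.0% of Mmp12 cells. The gene Marco was in 45.8%, 91.4%, 13.6% and 2.52% of them, in that order. Summed erythroid markers were at 4478 CPM in macrophage-like cells of control replicate 2, against 75.2 to 96.7 CPM in the other 3 libraries, and their part in the results was not tested. Between 1 and 5 kept barcodes were shared by any pair of libraries. Despite the sort, 199 endothelial-like, 29 stellate or fibroblast-like, 18 cholangiocyte-like and 10 hepatocyte-like cells were present. The macrophage transcript C1qa was found in 35.2% of T cell-like and 51.3% of B cell-like cells, and the part of such background in the levels of other classes was not tested.

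Macrophage-like cells of NASH livers had more transcripts of 6 of the 10 members and of no member fewer (0 lower at an unadjusted p under 0.05 and 0 with DESeq2). These were the protease gene Adam8, the activin-like ligand gene Gdf3, the urokinase receptor gene Plaur, Pdgfa, Igf1 and Tgfb1. Pdgfb, Gdf15, Plau and Vegfa did not pass the test, edgeR's quasi-likelihood test on summed counts with Benjamini-Hochberg adjustment over 10301 genes at a threshold of 0.05. Such calls were common in these cells, where 23.2% of all tested genes were called higher and 20.9% lower in NASH. As a description of the list, the median log2 fold change of the 10 members was 0.95, against -0.02 over all genes tested. The fit used TMM factors, which centre the genes between libraries. With library totals in their place, a choice made after the data had been seen, the median of all genes moved to -0.40 and the calls to 1302 higher and 3975 lower, from 2386 and 2157. With these totals 4 members were called, and Tgfb1 and Igf1 were not among them.

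**Figure D1:**
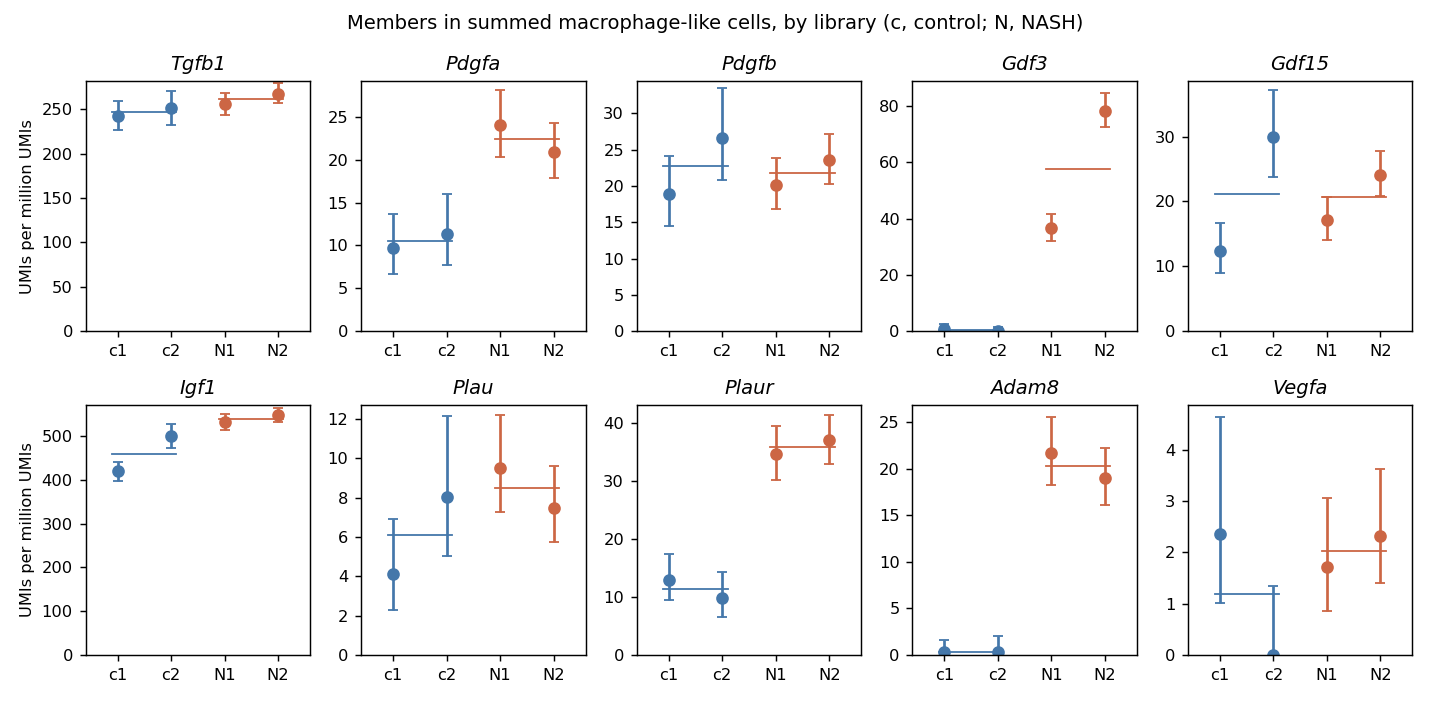
Levels of the 10 members in summed macrophage-like cells of each library, in CPM; c1 and c2 are the control and N1 and N2 the NASH libraries, bars are exact 95% Poisson intervals of the count and horizontal lines the means of 2 libraries. Adam8, Gdf3, Plaur and Pdgfa stood apart between the diets, while Pdgfb, Gdf15, Plau and Vegfa overlapped.

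**Figure D2:**
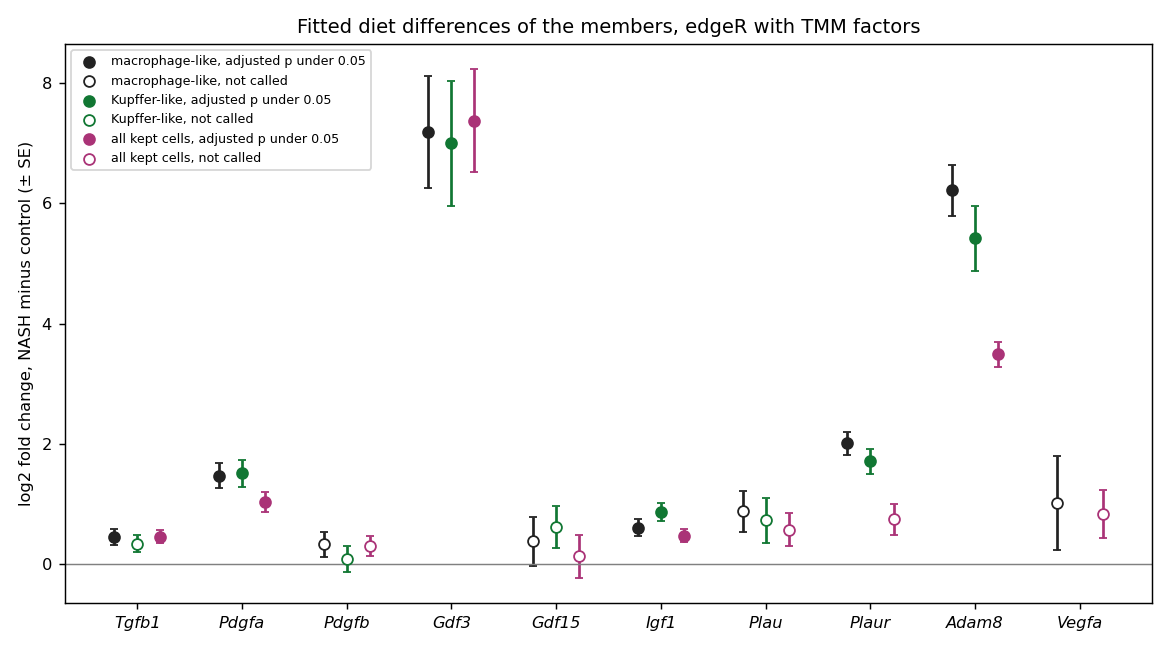
Fitted log2 fold changes, NASH minus control, for each member in macrophage-like sums, in the Kupffer-like part of them and in sums of all kept cells. The fits are from edgeR with TMM factors on 2 libraries per diet, and bars are standard errors back-calculated from the F statistic. Filled points passed an adjusted p of 0.05; Vegfa has no Kupffer-like value because it did not pass the filter on low counts there.

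Tgfb1 (chr7:25687002-25705077, plus strand, mm10), the founding ligand of its family, was broadly present and moved little. In macrophage-like cells its controls had 242 and 251 CPM and its NASH libraries 255 and 268 CPM. The groups did not overlap, but the NASH mean of 261 ± 8.62 CPM (SD, n = 2) was close to the control mean of 247 ± 5.94. The fitted log2 fold change was 0.46 (SE 0.133, edgeR adjusted p = 0.0149). This call was lost without NASH replicate 1 (edgeR adjusted p = 0.0944) or NASH replicate 2 (0.128), with a stricter cell filter of 500 genes and 5% mitochondrial UMIs (0.269) and with library totals, where the log2 fold change was 0.08 (0.62).

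Gdf3 (chr6:122605403-122610087, minus strand), whose product is a ligand related to nodal and activin, was almost silent in control livers. Control macrophage-like cells held 3 UMIs in replicate 1 (0.885 CPM) and 0 of 2738930 UMIs in replicate 2, which allows up to 1.10 CPM. NASH macrophage-like cells held 235 and 640 UMIs, or 36.6 and 78.4 CPM. Both NASH libraries were far above both controls, and NASH replicate 2 was above NASH replicate 1 by more than their counting intervals. Over the pooled counts the NASH level was 123 times the control level (exact 95% counting interval 41.8 to 596). EdgeR called the gene at an adjusted p of 0.00634. Its fitted log2 fold change of 7.18 (SE 0.929) depends on the prior count, and the call was lost without control replicate 1 (11.45, edgeR adjusted p = 0.243) or control replicate 2 (6.36, 0.231).

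Gdf15 (chr8:70629393-70632456, minus strand), a stress-induced hormone of the same superfamily, did not separate the diets. It stood at 12.4 and 29.9 CPM in control and at 17.2 and 24.1 CPM in NASH macrophage-like cells. Control replicate 1 was the lowest and control replicate 2 the highest of the 4 libraries. The fitted log2 fold change was 0.38 (SE 0.403, edgeR adjusted p = 0.484). It was -0.15 without control replicate 1 (edgeR adjusted p = 0.646) and 1.12 without control replicate 2 (0.00127), so which control library was used set its direction. In the cycling cluster Gdf15 was at 62.5 and 65.1 CPM in control and at 10.5 and 37.2 CPM in NASH. The groups did not overlap there, and the log2 fold change of -1.06 (SE 0.514) did not pass (edgeR adjusted p = 0.156).

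The surrounding TGF-beta genes moved in both directions in macrophage-like cells. Of 29 genes of TGF-beta activation, reception and signalling, 21 passed the filter on low counts, and 5 were higher and 5 lower. Over all genes tested in this fit 23.2% were called higher and 20.9% lower, and the list was near both shares. Its median log2 fold change was -0.06. The type I receptor gene Tgfbr1 rose from 51.4 ± 0.583 to 131 ± 2.12 CPM (log2 fold change 1.72, SE 0.138, edgeR adjusted p = 1.07e-05). The type II receptor gene Tgfbr2 fell from 131 ± 3.64 to 58.0 ± 3.82 CPM (-0.80, SE 0.136, edgeR adjusted p = 0.000796). Both receptors are needed for the signal. Pmepa1, a target of the pathway that restrains it, rose by 2.27 on the log2 scale (edgeR adjusted p = 0.000493), and Skil, a SMAD corepressor, fell by 0.68 (0.0022). The receptor gene Tgfbr3 held 10, 4, 3 and 3 UMIs in the 4 sums and was not tested.

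Genes for reception of GDF, activin and bone morphogenetic protein ligands were lower where they were called. Of 24 listed genes 13 were tested, 0 were higher and 6 lower, and the median log2 fold change was -0.65. Calls over all genes tested were 23.2% higher and 20.9% lower. At an unadjusted p under 0.05 edgeR gave 0 higher and 7 lower in the list, and DESeq2 called 0 higher and 4 lower. With library totals 0 were higher and 9 lower, where 1302 of all 10301 genes were called higher and 3975 lower. The receptor gene Bmpr1a fell from 17.8 ± 2.40 to 0.991 ± 0.362 CPM (log2 fold change -3.80, SE 0.362, edgeR adjusted p = 2.65e-05), and Bmpr2 fell by 1.03 on the log2 scale (0.000445). Smad5 and Smad1, which carry the signal of those receptors, fell by 1.02 (edgeR adjusted p = 0.000855) and 0.65 (0.00462). The receptor genes Acvr1, Acvr1b, Acvr2a and Acvr2b, which can receive GDF and activin ligands, had log2 fold changes of -0.65, -0.50, -0.97 and -0.56, none passing (edgeR adjusted p from 0.096 to 0.285). Gfral, the receptor gene for GDF15, held 0 UMIs in the macrophage-like sums of all 4 libraries.

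Among 11 integrated stress response and p53 genes, the setting in which Gdf15 is known to be induced, 9 were tested. Of these 2 were higher and 1 lower, beside 23.2% higher and 20.9% lower over all genes tested, and the median was 0.23. The stress factor gene Atf3 stood at 39.8 and 32.1 CPM in control and at 58.3 and 97.5 CPM in NASH (log2 fold change 1.49, SE 0.253, edgeR adjusted p = 0.00237). Trp53, encoding p53, had a log2 fold change of 0.53 (edgeR adjusted p = 0.0201). Sesn2, a target of both pathways, fell by 2.20 on the log2 scale (3.96e-05), and Ddit3 did not pass (0.52, edgeR adjusted p = 0.17).

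Pdgfa and Pdgfb, 2 chains of platelet-derived growth factor, behaved unlike each other. Pdgfa (chr5:138976014-138997370, minus strand) stood at 9.73 and 11.3 CPM in control and at 24.0 and 21.0 CPM in NASH macrophage-like cells. Both NASH libraries were above both controls, with a log2 fold change of 1.47 (SE 0.212, edgeR adjusted p = 0.000273), and the call was kept in each of 14 alternatives, at 1.10 to 2.28. Pdgfb (chr15:79995874-80014977, minus strand) stood at 18.9 and 26.7 CPM in control and at 20.1 and 23.5 CPM in NASH. The ranges overlapped, and the log2 fold change of 0.33 (SE 0.202) did not pass (edgeR adjusted p = 0.202). It was -0.04 with library totals. The difference between the 2 chains was not tested.

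Vegfa (chr17:46016993-46032369, minus strand), the main vascular growth factor gene, was at the limit of detection. All kept cells held 9 and 8 UMIs of it in the control and 29 and 42 in the NASH libraries. In macrophage-like cells the counts were 8 and 0 in control and 11 and 19 in NASH, or 2.36, 0, 1.72 and 2.33 CPM, and the 0 allows up to 1.10 CPM. The log2 fold change of 1.02 (SE 0.777) did not pass (edgeR adjusted p = 0.316). The 2 control libraries set its size: it was 6.64 without control replicate 1 (edgeR adjusted p = 0.0125) and 0.16 without control replicate 2 (0.871).

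Of 17 listed PDGF and VEGF family ligands and receptors, 9 were tested, 2 were higher and 2 lower, with a median log2 fold change of 0.37. The shares over all genes tested were 23.2% higher and 20.9% lower. The VEGF co-receptor genes Nrp1 and Nrp2 rose by 1.03 (edgeR adjusted p = 0.000214) and 2.67 (0.000895). The VEGF receptor gene Kdr fell by 1.47 on the log2 scale (edgeR adjusted p = 0.0122), beside summed endothelial markers of 295 and 319 CPM in control and 129 and 133 CPM in NASH macrophage-like sums, whose part was not tested. Hbegf, encoding an EGF receptor ligand, fell from 64.7 ± 6.88 to 21.4 ± 2.09 CPM (-1.22, SE 0.164, edgeR adjusted p = 0.000191). The receptor genes Flt1 and Flt4 did not pass (log2 fold changes 0.37 and -1.22). Pdgfra and Pdgfrb, the receptor genes of the PDGF chains, held at most 1 and 5 UMIs in any macrophage-like sum and were not tested.

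Of 15 hypoxia response genes, the program known to induce Vegfa, 14 were tested, 3 were higher and 4 lower, and the median was -0.21. Beside this, 23.2% of all genes tested were called higher and 20.9% lower. The glycolytic genes Ldha and Pgk1 rose by 1.76 (edgeR adjusted p = 1.06e-05) and 1.43 (0.000114) on the log2 scale, and Ankrd37 rose by 2.99 (0.000939). Arnt, which encodes the partner of the hypoxia-inducible factors, fell by 1.15 (edgeR adjusted p = 0.00036).

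Igf1 (chr10:87858265-87937042, plus strand), known for growth and repair signals from macrophages, stood at 420 and 500 CPM in control and at 532 and 547 CPM in NASH macrophage-like cells. The groups did not overlap, with means of 460 ± 56.7 and 539 ± 11 CPM. The log2 fold change was 0.61 (SE 0.144, edgeR adjusted p = 0.00553). The call was lost without NASH replicate 1 (edgeR adjusted p = 0.0531) or NASH replicate 2 (0.0604), under the stricter cell filter (0.0688) and with library totals (0.23, adjusted p = 0.204). Hepatocytes are the main source of Igf1 in the body, and summed hepatocyte markers in the macrophage-like sums were 1408 and 1329 CPM in control and 672 and 505 CPM in NASH, and their part in the Igf1 result was not tested.

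Of 18 IGF receptors, binding proteins and signalling genes 10 were tested, 0 were higher and 3 lower, with a median of -0.14. All genes tested gave shares of 23.2% higher and 20.9% lower. At an unadjusted p under 0.05 edgeR gave 0 higher and 4 lower in the list, and DESeq2 called 0 and 2. Igfbp2, a binding protein that hepatocytes make in quantity, fell from 4.74 ± 2.06 to 0.139 ± 0.0236 CPM (edgeR adjusted p = 0.000373), beside the hepatocyte markers above, whose part was not tested. Stat5b, the signal transducer through which growth hormone induces Igf1, fell by 0.82 on the log2 scale (edgeR adjusted p = 0.0023), and Insr, the insulin receptor gene, fell by 0.79 (0.00901). Igf1r, the receptor gene for IGF1, stood at 6.78 and 7.30 CPM in control and at 3.27 and 2.45 CPM in NASH. Its groups did not overlap, but the log2 fold change of -0.93 (SE 0.352) missed the threshold (edgeR adjusted p = 0.0505). Igf2r did not pass (0.37, edgeR adjusted p = 0.244).

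In the urokinase system the receptor gene rose clearly, and the enzyme gene was sparse. Plaur (chr7:24462484-24475968, plus strand) stood at 13 and 9.86 CPM in control and at 34.6 and 37.0 CPM in NASH macrophage-like cells. The 2 groups were well apart, with a log2 fold change of 2.01 (SE 0.196, edgeR adjusted p = 3.05e-05), and the call held in all 14 alternatives, at 1.63 to 2.23. Plau (chr14:20836660-20843385, plus strand) stood at 4.13 and 8.03 CPM in control and at 9.51 and 7.47 CPM in NASH. Its groups overlapped, on 14 to 61 UMIs per sum. The log2 fold change of 0.88 (SE 0.344) missed the threshold (edgeR adjusted p = 0.056), and it passed without control replicate 2 (1.40, adjusted p = 0.0072), without a filter on low counts (0.0157) and under the stricter cell filter (0.0408).

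Genes of plasminogen activation and its control were often higher. Of 20 listed 14 were tested, 8 were higher and 2 lower, and the median log2 fold change was 0.86. For comparison, 23.2% of all genes tested were called higher and 20.9% lower. With library totals 7 were higher and 4 lower, with a median of 0.49, where 1302 of all 10301 genes were called higher and 3975 lower. The 4 genes with the smallest p all encode surface binders of plasminogen. Anxa2 rose from 31.8 ± 5.15 to 195 ± 14.4 CPM (log2 fold change 2.99, SE 0.166, edgeR adjusted p = 9.07e-07), and its partner S100a10 from 12.7 ± 0.865 to 29.8 ± 3.5 CPM (1.60, SE 0.198, edgeR adjusted p = 0.000117). Eno1, mainly a glycolytic enzyme, rose by 2.00 on the log2 scale (edgeR adjusted p = 2.01e-05), with the limit that reads can be shared with a near-identical copy. Plgrkt, a plasminogen receptor gene, rose by 0.99 (edgeR adjusted p = 0.000229). Plg and Plat, encoding plasminogen and the tissue-type activator, held at most 9 and 1 UMIs in any sum and were not tested.

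Adam8 (chr7:139978932-139992562, minus strand), a membrane metalloproteinase and disintegrin of leukocytes, showed the clearest difference. Control macrophage-like cells held 1 UMI of it in each library (0.295 and 0.365 CPM). NASH macrophage-like cells held 139 and 155 UMIs, or 21.7 and 19.0 CPM. The NASH level over pooled counts was 61.8 times the control level (exact 95% counting interval 17.0 to 513). The fitted log2 fold change was 6.21 (SE 0.427, edgeR adjusted p = 4.04e-06), and it was called in each of 14 alternatives. Of 15 listed ADAM metalloproteinases and partners 9 were tested, 2 were higher and 3 lower, with a median of -0.46. Among all genes tested 23.2% were called higher and 20.9% lower. Library totals gave 0 higher and 6 lower in the list, and 1302 higher and 3975 lower among all 10301 genes. Rhbdf2, which carries ADAM17 to the surface, fell by 0.81 on the log2 scale (edgeR adjusted p = 0.00301) and Adam9 by 0.50 (0.0245). Adam15 and the selectin ligand gene Selplg, whose product ADAM8 can cleave, rose by 0.94 (edgeR adjusted p = 0.0082) and 0.63 (0.00435).

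Promoter sequences were read for the members with a RefSeq entry, 7 of 10 genes with 10 starts, in the 250 bases before each start (GRCm38.p6). Pdgfb, Gdf3 and Plau had none in the table. Plaur is printed because the AP-1 letters and the PU.1 core occurred together before its start, and Adam8 because it differed clearly and held none of the 5 motifs searched. The windows are chr7:24462233-24462482 (plus strand) for Plaur and chr7:139992563-139992812 (minus strand) for Adam8. Each runs 5′ to 3′ and ends at the last base before the start, and capitals mark motif matches on either strand.
Plaur: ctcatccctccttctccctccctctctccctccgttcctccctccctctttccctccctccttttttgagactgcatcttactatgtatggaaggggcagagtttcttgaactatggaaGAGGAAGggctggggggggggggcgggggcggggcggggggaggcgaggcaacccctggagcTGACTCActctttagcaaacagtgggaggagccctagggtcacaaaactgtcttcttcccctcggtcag
Adam8: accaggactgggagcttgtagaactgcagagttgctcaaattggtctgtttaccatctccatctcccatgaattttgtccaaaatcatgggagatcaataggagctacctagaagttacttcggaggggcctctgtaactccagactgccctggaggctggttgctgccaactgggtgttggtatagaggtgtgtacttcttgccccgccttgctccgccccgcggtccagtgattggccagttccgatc

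The motifs were TGANTCA for AP-1, GAGGAAG for the ETS core of PU.1, CACGTG for the E-box of the TFE family, ACGTG for the hypoxia response core, which the E-box contains, and TGATGNAA for ATF4, each on both strands. The AP-1 letters stood in 6.75% and the PU.1 core in 10.6% of 32851 promoter windows of the same length, and among the 10 member windows each stood in 2, those of Plaur and Igf1. The Igf1 window lies before an internal start and overlaps a 5′ UTR exon of longer transcripts. CACGTG (6.02% of windows) was found in 1 member window, of Gdf15, ACGTG (16.6%) in 2, of Gdf15 and of a Vegfa start inside the annotated gene that was not matched to a GENCODE transcript, and TGATGNAA (3.45%) in no member window. A match describes letters only and is not evidence of binding.

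The classes holding each member's transcripts were then compared between diets. Macrophage-like cells held 61.0% of all control and 51.2% of all NASH UMIs, which is the share a gene of even level would have. They held more than that of Igf1, 89.2% ± 3.56 (SD, n = 2) of its control and 77.4% ± 4.51 of its NASH UMIs, and of Gdf15, 77.2% ± 6.78 and 76.2% ± 4.17. Their share of Pdgfa was 66.5% ± 9.70 and 70.4% ± 1.26, of Pdgfb 80.5% ± 4.81 and 65.0% ± 3.74, and of Plau 65.8% ± 10.6 and 65.7% ± 3.00. For each of these 5 genes the mean macrophage-like share was above that of all UMIs under both diets. The Tgfb1 means of 66.4% ± 9.18 and 52.5% ± 7.63 were above it too, in each diet by less than the SD. In control the same held for Pdgfa and Plau, whose excess was less than their SDs. Levels can also be set against all kept cells of the same library. Plau was then lower in macrophage-like cells of control replicate 1 (4.13 against 4.76 CPM) and higher in control replicate 2 (8.03 against 6.00). Pdgfa was higher in both controls (9.73 against 8.93 and 11.3 against 10.4 CPM). Tgfb1 was lower in NASH replicate 1 (255 against 262 CPM) and higher in each other library. Gdf3 in NASH was 69.2% ± 5.50 macrophage-like and 12% ± 0.767 cycling. The cycling cluster is itself C1q-high, with C1qa in 99.6% of its cells.

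**Figure D3:**
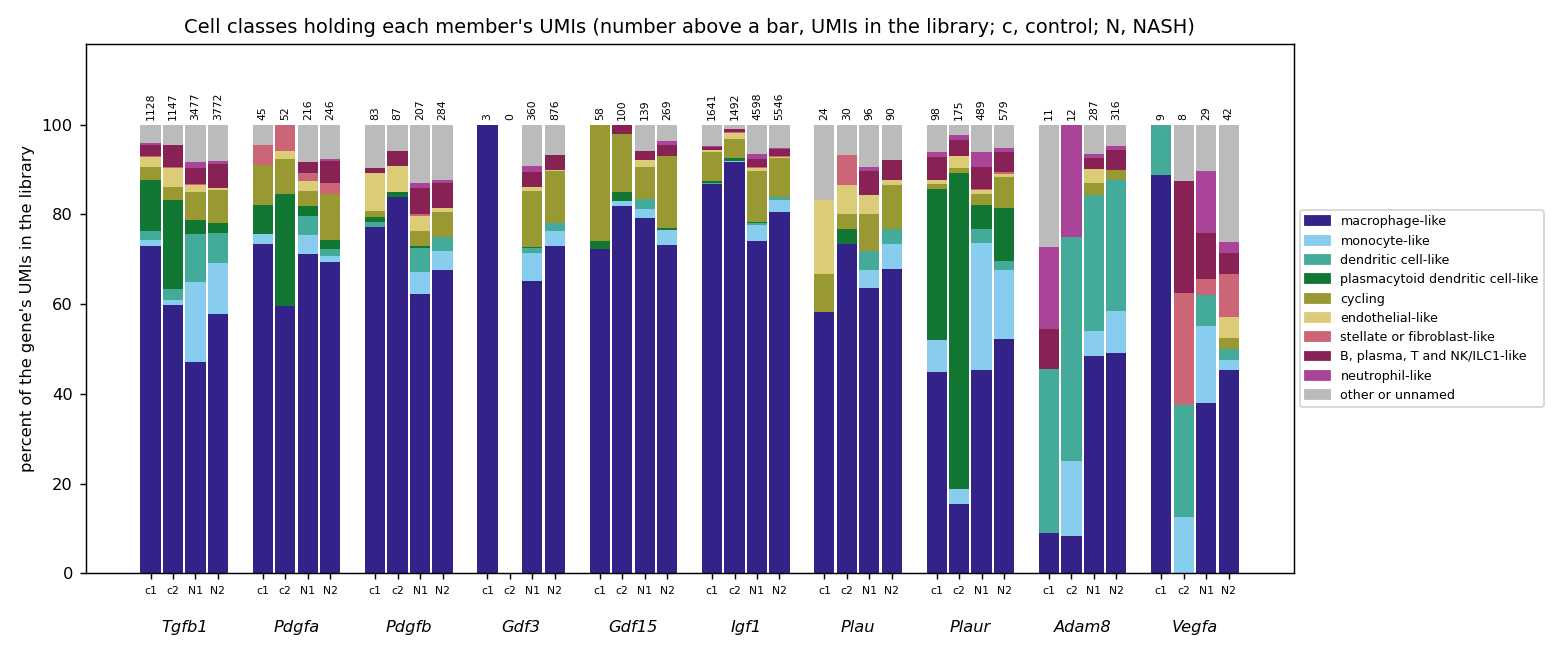
Percent of each member's UMIs in each library held by each cell class; c1 and c2 are the control and N1 and N2 the NASH libraries, and the number above a bar is the gene's UMIs in that library. Igf1 was chiefly macrophage-like in all 4 libraries, Plaur had its largest share in plasmacytoid dendritic cell-like cells in control replicate 2 and in macrophage-like cells in the other 3 libraries, and Adam8 had few control UMIs and 1 in the macrophage-like cells of each control library.

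The class holding most Plaur differed between the control libraries. Macrophage-like cells held 44 and 27 of its 98 and 175 control UMIs, and plasmacytoid dendritic cell-like cells 33 and 123, so macrophage-like cells held more in control replicate 1 and plasmacytoid dendritic cell-like cells in control replicate 2. In control livers plasmacytoid dendritic cell-like cells, known for interferon production, held 52.0% ± 25.9 of Plaur UMIs and macrophage-like cells 30.2% ± 20.8. In NASH livers macrophage-like cells held 48.8% ± 4.78, monocyte-like cells 21.9% ± 8.96 and plasmacytoid dendritic cell-like cells 8.63% ± 4.40. The level within plasmacytoid dendritic cell-like cells was 86.7 and 156 CPM in control and 98.3 and 260 CPM in NASH, overlapping between the diets (log2 fold change 0.37, edgeR adjusted p = 0.875). There were 75 and 173 of these cells in control and 50 and 51 in NASH, and monocyte-like cells 8 and 13 against 184 and 148. Monocyte-like cells of NASH held Plaur at 103 and 82.1 CPM, above the macrophage-like sums of the same libraries.

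Of Adam8, control macrophage-like cells held 8.71% ± 0.536 and dendritic cell-like cells 43.2% ± 9.64, on 11 and 12 UMIs in all. In NASH macrophage-like cells held 48.7% ± 0.437 and dendritic cell-like cells 29.7% ± 0.848. Within dendritic cell-like cells Adam8 was at 36.5 and 31.2 CPM in control and at 54.0 and 62.3 CPM in NASH. These did not overlap but did not pass the test (log2 fold change 0.77, SE 0.424, edgeR adjusted p = 0.492). The dendritic cells with most Adam8 in NASH were those led by Ccr7, Fscn1 and Il12b, genes of mature migratory cells, at 112 and 181 CPM.

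Tgfb1 was present in every class with enough cells to read. In NASH it was highest in monocyte-like cells (464 and 390 CPM) and plasmacytoid dendritic cell-like cells (386 and 306 CPM), with the lower monocyte-like value close to the higher plasmacytoid one. Macrophage-like cells followed at 255 and 268 CPM. Dendritic cell-like (230 and 171), B cell-like (174 and 176) and T cell-like cells (130 and 145) lay below as classes. The dendritic cell-like class was mixed. Its Cd209a/Tppp3/Lmo1 cluster was at 361 ± 44.3 CPM (SD, n = 2), above the macrophage-like cells. The Xcr1/Gcsam/A530099J19Rik cluster was at 161 ± 20.7 and the Ccr7/Fscn1/Il12b cluster at 45.2 ± 2.85 CPM. Stellate or fibroblast-like cells held 3 UMIs in each NASH library. Pdgfa was dense outside the leukocytes, at 130 and 66.5 CPM in control and 44.3 and 67.9 CPM in NASH stellate or fibroblast-like cells, on 2 to 6 UMIs per library. Cholangiocyte-like cells, bile duct lining cells present only in the NASH libraries, held Pdgfa at 82.1 and 73.6 CPM on 3 and 7 UMIs. Pdgfb in endothelial-like cells, a known source, was at 41.0 and 18.1 CPM in control and 27 and 20.2 CPM in NASH.

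Within NASH macrophages the members divided by state. The clusters were drawn without the 10 members but from genes of the same cells, so their levels by cluster are a description with no test. Adam8 was at 60.2 and 82.0 CPM in the Atp6v0d2/Gpnmb/Syngr1 cluster, where it ranked among the 10 leading genes, and at 21.0 and 23.9 CPM in the Mmp12/Mmp13/Il1rn cluster. It was lowest in the Folr2/Apoc1/Mmp27 cluster (3.6 and 1.06 CPM) and the Cx3cr1/Olfml3/Sirpb1a cluster (3.87 and 6.44 CPM). The Atp6v0d2 and Mmp12 clusters lead with genes of lipid- and scar-associated macrophages, and 84.2% and 54.1% of their cells had a UMI of Gpnmb. Plaur followed a similar order, at 65.6 and 83.9 CPM in the Atp6v0d2 cluster, 33.8 and 39.0 in the Mmp12 cluster, 17.8 and 28.5 in the Cx3cr1 cluster and 20.9 and 24.7 in the Folr2 cluster. The last pair overlapped.

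**Figure D4:**
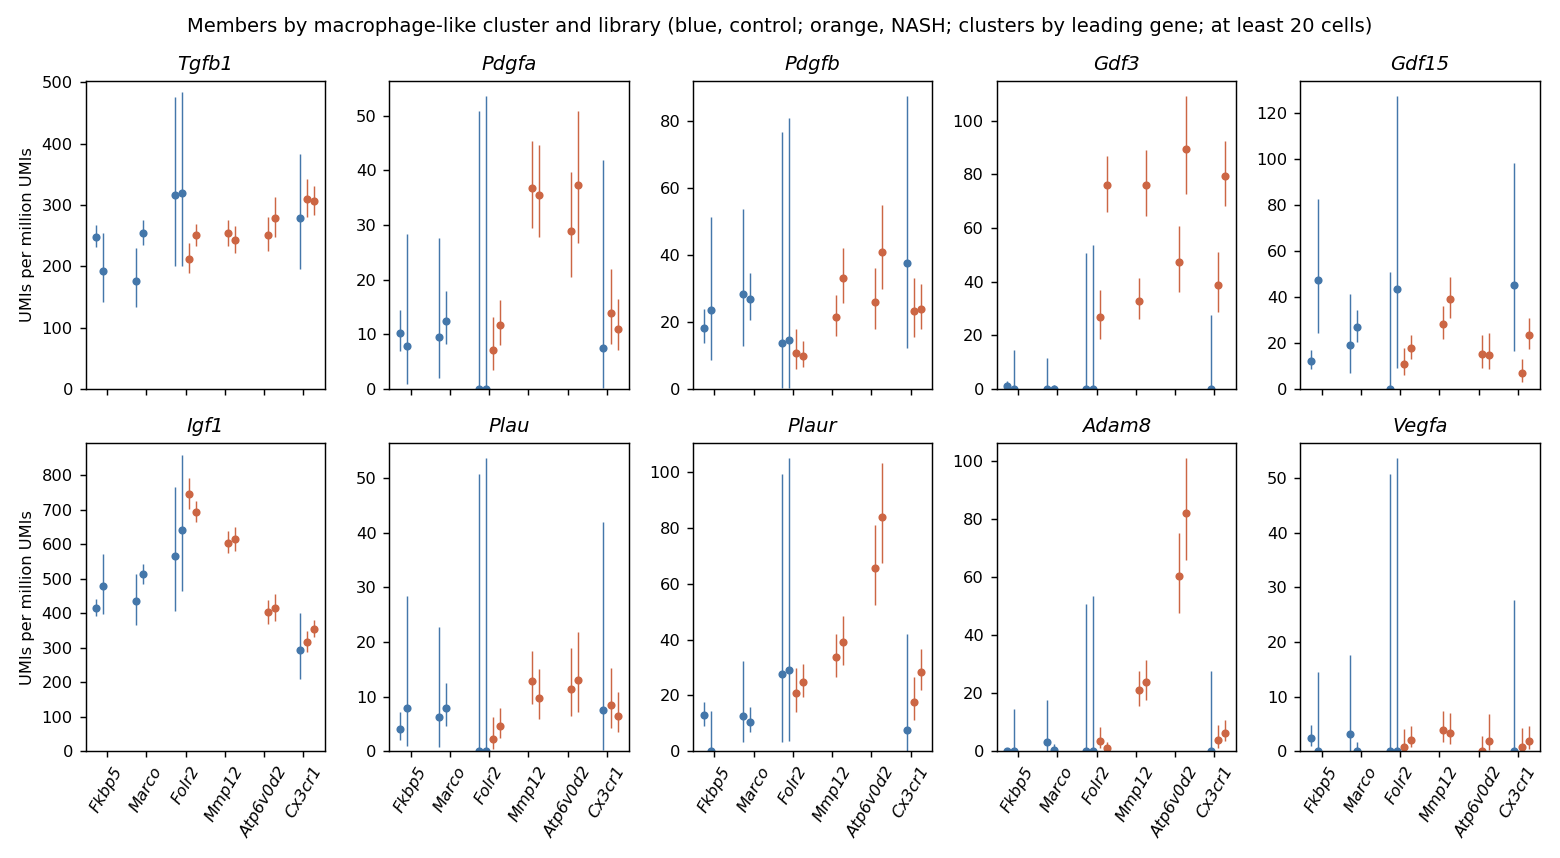
Levels of the members in CPM by macrophage-like cluster, named by its leading gene, with 1 point per library of at least 20 cells and exact 95% Poisson intervals. Adam8 and Plaur were highest in the Atp6v0d2 cluster, Pdgfa in the Mmp12 and Atp6v0d2 clusters and Igf1 in the Folr2 cluster, while Gdf3 differed more between the 2 NASH libraries than among clusters.

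Pdgfa was higher in the Mmp12 (36.8 and 35.6 CPM) and Atp6v0d2 (29.0 and 37.3) clusters than in the Cx3cr1 (13.9 and 11) and Folr2 (7.20 and 11.7) clusters, and Pdgfb was lowest in the Folr2 cluster (10.8 and 9.89 CPM). Plau, on 3 to 30 UMIs, had the same 2 clusters highest, at 12.8 and 9.75 CPM in the Mmp12 and 11.4 and 13.1 CPM in the Atp6v0d2 cluster. Igf1 had another order. It was highest in the Folr2 cluster (746 and 694 CPM), then in the Mmp12 cluster (604 and 614), the Atp6v0d2 cluster (402 and 416) and the Cx3cr1 cluster (317 and 355), with no overlap between neighbours. Gdf15 was highest in the Mmp12 cluster (28.3 and 39.0 CPM). Tgfb1 spanned 212 to 310 CPM over these 4 clusters.

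Gdf3 differed more between the NASH libraries than between states. In NASH replicate 1 it was at 26.6 CPM in the Folr2 cluster, 33.0 in the Mmp12 cluster, 38.7 in the Cx3cr1 cluster and 47.3 in the Atp6v0d2 cluster. In NASH replicate 2 the same clusters stood at 75.9, 76.0, 79.5 and 89.5 CPM. Every cluster was higher in replicate 2, and the Atp6v0d2 cluster was highest in both libraries. The CPM order of the 4 clusters was the same in both, but in replicate 2 the Folr2, Mmp12 and Cx3cr1 clusters lay close together. With cells thinned to 1000 UMIs, replicate 1 kept this order in the share of cells with a UMI. Replicate 2 did not, at 7.16% in the Folr2, 6.23% in the Mmp12 and 4.83% in the Cx3cr1 cluster. The gap between the 2 libraries was wider within each cluster than the spread over the 4 clusters within either library.

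In the Kupffer-like part of the class 5 of 10 members were called higher and 0 lower, where 21.0% of 9771 tested genes were called higher and 17.8% lower. Control Kupffer-like cells lay mostly in the Fkbp5 and Marco clusters and nearly all NASH ones in the Folr2 and Mmp12 clusters. The latter clusters had Timd4 and Marco in fewer cells, so diet and state are not separated here. Igf1 rose from 466 ± 63.3 to 660 ± 1.16 CPM (log2 fold change 0.87, SE 0.153, edgeR adjusted p = 0.00134). Plaur had a log2 fold change of 1.71 (edgeR adjusted p = 0.000221), Pdgfa 1.51 (0.000512), Adam8 5.42 (8.23e-05) and Gdf3 7.00 (0.0116). Adam8 there rested on 2 control and 106 NASH UMIs, a ratio of 36.5 (exact 95% counting interval 9.87 to 306). Tgfb1 did not pass (0.34, edgeR adjusted p = 0.0698), with control at 246 ± 4.49 and NASH at 243 ± 6.65 CPM. When the members were among the clustered genes, 3 of them were called, where 2004 of 9501 tested genes were called higher and 1723 lower.

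Over all kept cells 5 of 10 members were called higher, where 18.2% of 12124 tested genes were called higher and 16.6% lower. They were Adam8 (2.18 and 2.40 against 21.6 and 20.9 CPM, log2 fold change 3.49, edgeR adjusted p = 0.00044), Gdf3, Pdgfa (1.04, 0.00595), Igf1 (0.48, 0.0155) and Tgfb1 (0.46, 0.0165). Plaur, called in macrophage-like cells, did not pass here (0.75, SE 0.257, edgeR adjusted p = 0.0664). It stood at 19.4 and 35.0 CPM in control, where control replicate 2 held the more plasmacytoid dendritic cell-like cells, and at 36.8 and 38.2 CPM in NASH. Without control replicate 2 it passed (1.23, edgeR adjusted p = 0.000865), and without NASH replicate 1 or NASH replicate 2 the test called 2 members. The calls over all genes fell as well, from 2203 higher and 2015 lower to 719 and 432 without NASH replicate 1 and to 664 and 331 without NASH replicate 2.

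In 7 other classes with enough cells, 17 member tests could be made and 4 passed, all higher. In the cycling cluster, where 13.7% of 6280 genes were called higher, these were Gdf3, Tgfb1 and Igf1. Gdf3 held 0 UMIs there in both control libraries, which allows up to 12.5 and 15.0 CPM, and 47.0 and 86.6 CPM in NASH (edgeR adjusted p = 0.000206). Tgfb1 rose from 156 ± 26.8 to 236 ± 7.51 CPM (log2 fold change 0.91, SE 0.215, edgeR adjusted p = 0.00454). Igf1 was called (0.66, edgeR adjusted p = 0.0226) although its libraries, at 441 and 311 CPM in control and 550 and 422 CPM in NASH, overlapped.

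In B cell-like cells, where 9.13% of 2825 genes were called higher, Igf1 was called (12.1 and 16.7 against 171 and 133 CPM, log2 fold change 3.17, SE 0.460, edgeR adjusted p = 1.26e-05). These sums also held macrophage transcripts, with 15 of 15 listed macrophage markers measured and summed levels of 1607 and 1399 CPM in control and 9499 and 6553 CPM in NASH, and with at most 1 of the markers at 0 in any library. Their part in the Igf1 result was not tested. Per 1000 CPM of those markers, Igf1 stood at 18.0 and 20.4 CPM in NASH B cell-like cells. The same ratio was 18.8 and 17.2 CPM in NASH macrophage-like cells and 7.55 and 11.9 CPM in control B cell-like cells. In NASH T cell-like cells, 48 and 54 cells with few macrophage transcripts (1121 and 1078 CPM), Igf1 held 2 and 0 UMIs and Gdf3 1 and 1.

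The share of macrophage-like cells with at least 1 UMI was compared after thinning every cell to 1000 UMIs, leaving out 13 and 9 shallower control cells. For 5 members both NASH libraries then exceeded both controls. No such count was made over all genes, before or after thinning, so it has no background share beside it. Adam8 was detected in 2.17% and 1.96% of NASH cells and in 0 of 961 and 0 of 863 control cells, Gdf3 in 3.93% and 6.46% and again in 0 of the same control cells, which allows a share of up to 0.312% and 0.348% of cells with a UMI at this depth and sets no limit on cells expressing the gene. Plaur was detected in 3.12% and 3.82% against 0.937% and 0.811%, Pdgfa in 2.71% and 2.54% against 0.832% and 1.04%, and Tgfb1 in 22.8% and 23.8% against 18.6% and 21.2%. Before thinning, Adam8 was seen in 10.2% and 8.41% of NASH and in 0.103% and 0.115% of control cells, and 9 members separated the diets, with the median depth of the macrophage-like cells at 3124 and 2844 UMIs in control and 8252 and 7564.5 in NASH. In thinned T cell-like cells, which should lack macrophage ligands, Gdf3, Igf1, Pdgfa and Gdf15 were found in 0 of 142 cells. Adam8 was found in 3 of the 54 thinned T cell-like cells of NASH replicate 2 (5.56%), above its macrophage-like share there, and Tgfb1 in 22.2% of them. In NASH replicate 1 Adam8 was found in 0 of 48 such cells, which allows up to 6.25%, and Tgfb1 in 3 of 48. The Tgfb1 share was thus below the macrophage-like share in NASH replicate 1 and near it in NASH replicate 2. For Adam8 the T cell-like counts are too few to read a contrast.

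The genes most like each member were sought over 32 sums of a class in a library, by Pearson r of log2(CPM + 10) over 5040 genes. The sums share libraries and depths, so r is a description. Gdf3 was nearest to Gpnmb (r = 0.895), Trem2 (0.887) and Mmp12 (0.881), genes known from lipid-associated macrophages. Igf1 was nearest to C1qa (0.960), Ctsc (0.960) and C1qc (0.955), a complement chain, a lysosomal protease and another complement chain. Adam8 was near to Fabp5 (0.810), which binds fatty acids, and H2-M2 (0.750). Plaur was nearest to Cib1 (0.811), Plac8 (0.786) and Lims1 (0.779). Tgfb1 was nearest to Stard3 (0.854), Fth1 (0.806) and Prdx5 (0.80), and Gdf15 to Ano6 (0.833), Ptp4a2 (0.832) and Hebp1 (0.804). Plau was nearest to Dhrs3 (0.843), Tmem106a (0.832) and App (0.827), Pdgfa to Nceh1 (0.749), Il11ra1 (0.735) and Fth1 (0.732), and Pdgfb to Rhoc (0.750), Luzp1 (0.699) and Pea15a (0.666). Vegfa, on 88 UMIs in all kept cells, was nearest to the neutrophil granule genes Ngp (0.688), Camp (0.654) and Ltf (0.647). Sums needed at least 20 cells, so of the neutrophil-like cells only the 20 of NASH replicate 1 entered.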

How the data were processed

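The authors deposited 4 count matrices of raw UMIs per gene and cell barcode, with 1550 to 1933 barcodes each. Per the submitters' processing notes, Cell Ranger, Seurat and mm10 were used; their versions were not stated there. UMI totals per library were 5513953 and 5684819 (control) and 13749657 and 15619962 (NASH).

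Barcodes needed 200 genes or more and no more than 10% of UMIs from mitochondrial genes, and the highest Scrublet scores, 0.8% per 1000 cells, were removed as doublets (14, 17, 20 and 28 cells). Counts were scaled to 10000, and 2000 variable genes without the 10 members, 30 principal components, 15 neighbours and Leiden resolution 1.0 gave 27 clusters in scanpy 1.11.5 under Python 3.11.15. The names rest on 19 lists of markers, and 5 clusters (356 cells) stayed unnamed. A macrophage-like cluster had C1q genes in at least 90% of cells. No deposited annotation was used, so class names are rebuilt here.

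Counts were summed per library and class (at least 10 cells in each library) and tested with edgeR 4.0.16 (filterByExpr, TMM, robust quasi-likelihood F test, Benjamini-Hochberg over all genes tested, threshold 0.05; R 4.3.3, limma 3.58.1). The SE beside an edgeR log2 fold change is its absolute value over the square root of the F statistic. It is back-calculated from the test and does not by itself give the p. DESeq2 1.42.0 was an alternative. An exact permutation of 2 against 2 libraries cannot go under p = 0.333. The scripts were tested on simulated data. Intervals are exact at 95% and, like the limits of 3 counts, cover counting error only. Gene positions are GENCODE vM21, and promoters RefSeq. Each pathway list is described by its counts and the 4 tested genes with the smallest p, plus receptors of the members and genes chosen for background after their values were seen. The members and lists were chosen with earlier results of these data known. Alternatives covered normalization, filters, clustering, doublets, pairing and leaving out each library.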

Additional observations from a re-analysis of the deposited data

How the results depend on the processing

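Over 14 alternatives of the macrophage-like fit, 137 member values were recomputed: 117 kept direction and side of the threshold, 10 lost the call, 7 gained it and 3 changed sign. Cell-level settings were not run for the pathway lists. The depth of the control libraries limits genes of a few CPM (Vegfa, Plau, Gdf3). Leaving out 1 library, with the lone sample assumed to vary like the other group, gave 4 to 8 members called in macrophage-like, 5 to 6 in Kupffer-like and 2 to 5 in all-cell sums, 4 to 5 calls in other classes and 37 to 54 pathway genes. Without control replicate 2, Plau, Pdgfb (adjusted p = 0.0406) and Gdf15 passed in edgeR, and Vegfa passed without control replicate 1 (0.0125). Kupffer-like sums with the members clustered gave 3 calls, all-cell sums with library totals 3, and other classes with DESeq2 2. Over all genes the first setting called 2004 higher and 1723 lower of 9501, and the second 1162 higher and 3670 lower of 12124. Macrophage-like cells held over 50% of the UMIs in every control library that held any for 7 members, Gdf3 among them on 3 UMIs of 1 library, and for 4 under the stricter cell filter. In the main setting they also held over 50% of all UMIs of each control library. A gene of even level would thus pass this mark. Without thinning, 9 members rather than 5 had more detecting cells in both NASH libraries, with no count over all genes beside them. For macrophage-like sums DESeq2 called 1709 genes higher and 1304 lower. Pathway genes numbered 48, or 61 (16 higher, 45 lower) with library totals.

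Values that changed sign were uncalled. They were, in macrophage-like sums, Pdgfb -0.045 (library totals) and Gdf15 -0.15 (without control replicate 1) and -0.29 (stricter cells). In Kupffer-like sums they were Tgfb1 -0.022 and Pdgfb -0.27 (library totals), Pdgfb -0.12 (without control replicate 1), -0.016 (doublets kept) and -0.50 (members clustered), Gdf15 -0.11 (stricter cells) and -0.37 (members clustered), and Plau -0.40 (members clustered). In all cells Gdf15 was -0.19 without control replicate 1, -0.27 without NASH replicate 2 and -0.15 with library totals. Among the sign changes from leaving out 1 library, the highest value of the same gene and sum, each without control replicate 2, was 1.12 for Gdf15 in macrophage-like, 0.32 for Pdgfb in Kupffer-like and 0.58 for Gdf15 in all-cell sums. In Kupffer-like sums Gdf15 ran from 0.11 to 1.31 and Plau from 0.30 to 1.24 with 1 library left out. The cause was not tested. With the replicate number as a block, 7, 6 and 6 members were called in the 3 sums, 5 in other classes and 51 pathway genes. Over all genes the block gave 2413 higher and 2195 lower of 10301 in macrophage-like sums. It gave 2132 and 1838 of 9771 in Kupffer-like sums and 1771 and 1529 of 12124 in all-cell sums. Deviations of same-numbered libraries from their diet means correlated at -0.0385 in macrophage-like sums. With 2 libraries per diet this is 1 value only, and it cannot show whether the numbers mark a shared day or animal. With the block, Plau (edgeR adjusted p = 0.0469) passed in macrophage-like cells and Plaur (0.0461) in all cells.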
